A study of Homo sapiens with 6 samples.

Results

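The synucleins and the neuronal intermediate filaments were followed here in HEK293 cells whose BAHD1 transcript was targeted with an siRNA. The members are the synuclein genes SNCB and SNCG, the gene SNCAIP for a synuclein-binding protein, and the filament genes NEFL, NEFM, NEFH, INA and PRPH. Every probe set that the platform annotation assigns to one of these 8 genes was taken, which gave 15 of the 54613 non-control probe sets on the array, and none of the 15 is shared with a further gene. HEK293 is an established human embryonic kidney line. The 3 control samples received a control siRNA and the 3 treated samples a BAHD1 siRNA, each for 72 h with the same lipid reagent, and each sample was read on 1 array. The 2 groups are called control and knockdown arrays here. The labels call the samples biological replicates without saying what separates them, so the spread between arrays may be partly technical. The genes were selected on earlier results of this same comparison, in which the difference of SNCB was one of the largest. The differences between groups are therefore given as descriptions. No p-value is printed for a member, and whether a member was called is stated as a description only.

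Synucleins are small, natively unfolded proteins that bind membranes and are concentrated in presynaptic terminals. Beta-synuclein and gamma-synuclein, from SNCB and SNCG, share a repeat-bearing membrane-binding part, and synphilin-1, from SNCAIP, binds synuclein and is found in its inclusions. Neurofilaments are the intermediate filaments of axons, built from the light, medium and heavy subunits encoded by NEFL, NEFM and NEFH together with alpha-internexin, from INA. Peripherin, from PRPH, joins them mainly in neurons of the peripheral nervous system. BAHD1 is a nuclear protein of repressive chromatin, and many neuronal genes are held silent outside neurons by the repressor REST and its co-repressors.

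BAHD1 itself, read by a single probe set, ran from 46.7 to 62.9 with the control siRNA and from 36.6 to 46.8 with the BAHD1 siRNA, 76.0% of the control level on average, so that the groups overlapped narrowly. Signals are linear array intensities in arbitrary units, scaled by the depositors to 1 common level, and the array medians lay between 15.9 and 19.5. Of the 8 HEK293 line markers with a probe set, 7 passed the signal filter described next (PAX2, EYA1, KRT8, KRT18, VIM, LIN28B and CDH2; LHX1 did not). The summed signal of these 8 ranged over 5323.8 to 5816.5 in the control group and 4876.2 to 5164.7 in the knockdown group. Most of this sum was VIM, at 3105.6 to 3679.3 in control arrays and 2652.6 to 2806.4 in knockdown arrays. Of the 7 kept markers, 4 were higher and 3 lower in the knockdown group. Bacterial poly-A transcripts, spiked into the RNA ahead of labelling and read by 24 probe sets, had a median ratio of 1.49 between knockdown and control arrays, and their part in the differences reported here was not tested.

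A probe set was kept for the tests across the array when its signal exceeded 17.9, the median of all non-control values, in at least 3 of the 6 arrays. Of the 15 member probe sets, 9 passed, representing SNCB, SNCAIP, NEFL, NEFM, INA and PRPH, and the 6 that did not included every probe set of SNCG and NEFH. Over all 15, 14 had a higher mean with the BAHD1 siRNA and their median difference was 0.37 in log2 units, on the log2(signal + 1) scale used throughout. Over all 54613 probe sets 54.6% were higher and the median was 0.04. In 7 of the 9 kept probe sets all 3 knockdown values exceeded all 3 control values, a pattern seen in 13.4% of the 27458 kept probe sets. The limma fit with 1 variance prior called no member at an adjusted p under 0.05, and 0% of kept probe sets, although 17.6% had an unadjusted p under 0.05. A second limma fit whose prior variance follows the signal, called the intensity-trend fit below, called 4 member probe sets, those of SNCB and NEFM and 2 of the 3 of NEFL, all higher, where 2.17% of all kept probe sets were called higher and 2.28% lower. Because the members were picked on this comparison, these counts describe them and carry no weight as evidence. SNCB is among both the 7 and the 4, and it passed the filter through its knockdown values alone. Neither count is therefore read against the shares of all kept probe sets. The 4 calls became 0 without control replicate 1, without knockdown replicate 1 or without knockdown replicate 2, 1 without knockdown replicate 3, and 2 without control replicate 2 or control replicate 3. They were also 0 with no signal filter, 1 with array medians centred and 2 after quantile normalisation. Since the arrays measured bulk RNA, more cells with a transcript and more transcript per cell cannot be told apart.

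**Figure D1:**
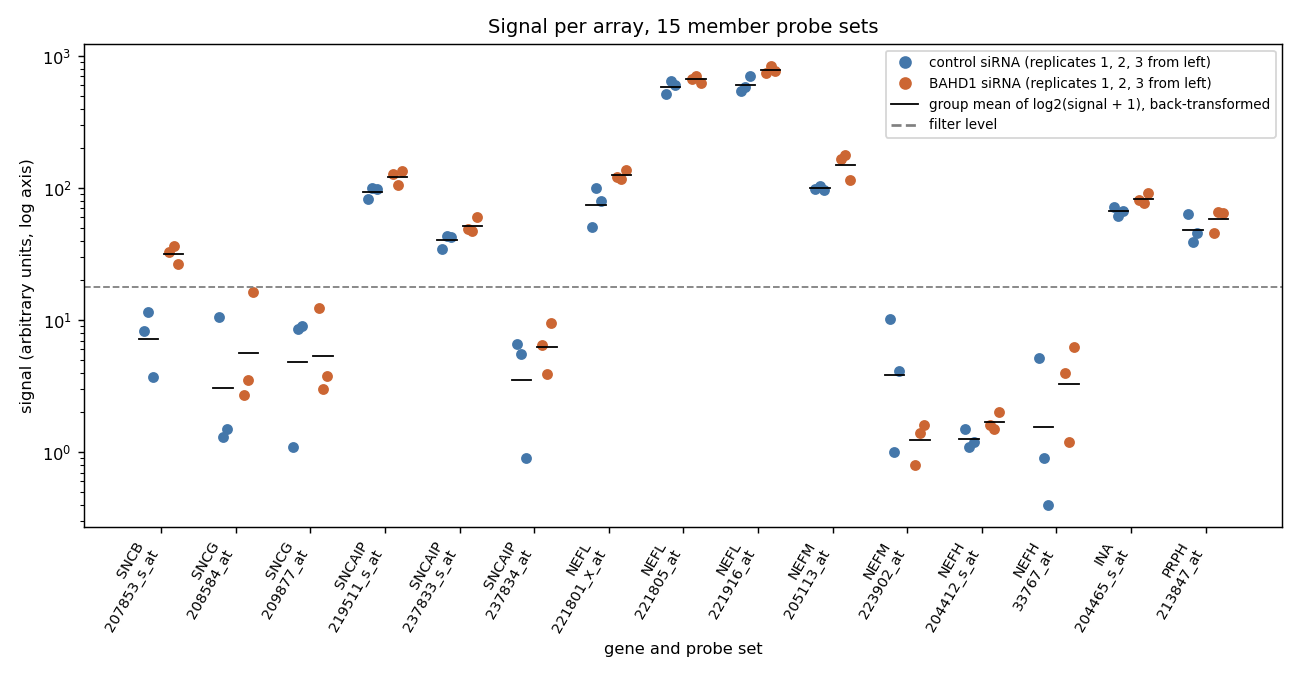
Signal in arbitrary units on a log axis for the 15 member probe sets, with 3 control siRNA arrays (blue) and 3 knockdown arrays (orange) each, black bars for group means and a dashed line at the filter level of 17.9. The control values of SNCB lie below the line and its knockdown values above it, whereas both SNCG and both NEFH probe sets lie below it in every array.

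The promoters of the members are shown to let their base composition and motifs be set beside the signals, a feature looked at after the values were known. RefSeq promoter windows (build GRCh38.p14) were matched by symbol for 5 of the 8 members, with 7 windows, since SNCAIP and SNCG have 2 starts each. Each line gives the 250 bases before an annotated start, on the strand of the gene and 5′ to 3′, with matches on either strand in capitals. The motifs searched were GGGCGG (a GC box), TATAAA (a form of the TATA box), the pentamer CCAAT, and the pieces GGACAG and, separately, CAGCACC of the REST binding element, none of which contains another.
SNCB, chr5:176630535-176630784, minus strand: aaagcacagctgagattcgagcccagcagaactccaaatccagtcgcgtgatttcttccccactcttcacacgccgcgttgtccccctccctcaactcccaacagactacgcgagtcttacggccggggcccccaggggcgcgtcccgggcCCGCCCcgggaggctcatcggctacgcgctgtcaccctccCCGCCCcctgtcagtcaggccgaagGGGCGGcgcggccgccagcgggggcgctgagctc
SNCG, chr10:86955509-86955758, plus strand: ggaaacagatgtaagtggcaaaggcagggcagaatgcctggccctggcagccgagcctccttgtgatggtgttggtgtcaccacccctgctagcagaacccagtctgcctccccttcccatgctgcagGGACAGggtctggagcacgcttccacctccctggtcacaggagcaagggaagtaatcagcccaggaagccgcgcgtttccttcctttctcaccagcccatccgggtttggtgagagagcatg
SNCAIP, upstream start, chr5:122311987-122312236, plus strand: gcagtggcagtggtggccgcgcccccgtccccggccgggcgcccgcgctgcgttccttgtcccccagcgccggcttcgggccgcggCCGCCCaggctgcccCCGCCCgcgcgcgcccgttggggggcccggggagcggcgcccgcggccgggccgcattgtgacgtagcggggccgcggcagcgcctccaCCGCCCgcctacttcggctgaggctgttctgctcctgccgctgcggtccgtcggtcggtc
INA, chr10:103276888-103277137, plus strand: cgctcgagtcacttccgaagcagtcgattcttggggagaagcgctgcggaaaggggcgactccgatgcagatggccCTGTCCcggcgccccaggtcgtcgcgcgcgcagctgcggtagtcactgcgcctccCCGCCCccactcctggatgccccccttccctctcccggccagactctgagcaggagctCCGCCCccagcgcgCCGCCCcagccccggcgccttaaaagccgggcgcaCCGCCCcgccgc
PRPH, chr12:49294897-49295146, plus strand: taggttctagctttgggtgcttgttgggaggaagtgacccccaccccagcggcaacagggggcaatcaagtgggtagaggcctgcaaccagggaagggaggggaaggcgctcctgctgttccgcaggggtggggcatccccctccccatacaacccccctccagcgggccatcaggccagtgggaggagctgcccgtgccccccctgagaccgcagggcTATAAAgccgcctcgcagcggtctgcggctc

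The SNCB window held 26 CpG dinucleotides, the INA window 30 and the upstream SNCAIP window 41, against a median of 11 over all 35116 RefSeq windows of this length. Respectively 80.4%, 87.6% and 98.3% of all windows held fewer. The PRPH window held 10 CpG, and the SNCG windows 6 and 7, below that median. The downstream SNCAIP window held 3. GGGCGG was found 3 times in the SNCB window, 4 times in INA and 3 times in the upstream SNCAIP window, and 42.6% of all windows hold at least 1 match. PRPH had a TATAAA match starting 31 bases before its start, a motif present in 10.7% of windows. CCAAT occurred only in the downstream SNCAIP window among the 7 and in 32.0% of all windows. CAGCACC was in none of the 7 windows (6.16% of all windows), and GGACAG was in those of INA, the downstream SNCAIP start and both SNCG starts (17.2% of all windows). No match overlapped another in the printed windows.

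Beta-synuclein had the largest difference of the 15 probe sets. The single SNCB probe set (207853_s_at) had signals of 8.2, 11.5 and 3.7 in control replicates 1 to 3 and of 33.0, 36.4 and 26.5 in knockdown replicates 1 to 3. No value was shared between the ranges, and every control value was below the filter level while every BAHD1 siRNA value was above it, so that the probe set was kept through the knockdown arrays alone. On the log2 scale the means were 3.03 ± 0.72 (SD, n = 3) and 5.03 ± 0.23 (SD, n = 3), a log2 fold change of 2.01. Its SE was 0.36 from the fit with 1 prior, the source of the SE of the other kept members too. In the intensity-trend fit the SE of SNCB was 0.48. No linear fold is given, since no control value rose above the filter level. On the log2(signal + 16) scale, which damps dim signals, the difference was 1.02. SNCB lies in the dimmest quartile of kept probe sets, where 60.9% were higher in knockdown cells, the median log2 fold change was 0.11 and the median SD between replicates was 0.37, compared with 0.535 for SNCB. With 1 array left out the SNCB difference ran from 1.61, without control replicate 3, to 2.31, without control replicate 2.

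Gamma-synuclein stayed below the filter level in all 6 arrays. The SNCG probe set 208584_at read 10.5, 1.3 and 1.5 in control arrays and 2.7, 3.5 and 16.3 in knockdown arrays. The other, 209877_at, read 1.1, 8.5 and 9.0 against 12.4, 3.0 and 3.8. Control replicate 1 and knockdown replicate 3 were the highest of their groups with the former, and control replicate 3 and knockdown replicate 1 with the latter, so the probe sets did not rank the arrays alike. The log2 differences of 0.71 (SE 1.03, from the SDs of both groups) and 0.12 (SE 0.92) were smaller than their errors. With 1 array left out the first ran from 0.013, without knockdown replicate 3, to 1.46, without control replicate 1, and the second from -0.62, without control replicate 1, to 0.51, without control replicate 3.

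Synphilin-1 was modestly higher with both probe sets that passed the filter. SNCAIP probe set 219511_s_at had signals of 83.1, 99.8 and 98.8 in control arrays and 128.3, 105.6 and 134.0 in knockdown arrays. Probe set 237833_s_at had 34.8, 43.4 and 42.7 against 48.7, 47.0 and 60.2. In both, control replicate 1 was the lowest array, knockdown replicate 3 the highest, and the groups did not overlap. The log2 fold changes were 0.38 (SE 0.13) and 0.36 (SE 0.14), a close match between probe sets of 1 gene, and neither was called in either fit. The remaining probe set, 237834_at, was below the filter in all 6 arrays, between 0.9 and 6.6 in the control group and between 3.9 and 9.5 in the knockdown group.

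The neurofilament light subunit was among the clearly detected members. NEFL probe set 221916_at had signals of 540.0, 578.2 and 708.1 in control arrays and 743.2, 841.1 and 765.2 in knockdown arrays, with no overlap. Its log2 fold change was 0.37 (SE 0.13), from 9.24 ± 0.20 to 9.61 ± 0.09 (SD, n = 3 each). Probe set 221805_at read 515.3, 642.1 and 599.8 against 673.0, 707.4 and 620.1, so that knockdown replicate 3 lay below control replicate 2 and the groups overlapped, and the log2 fold change was 0.19 (SE 0.11), or 0.10 to 0.26 with 1 array left out. Probe set 221801_x_at read 50.9, 99.3 and 79.8 against 121.9, 116.3 and 138.0, a log2 fold change of 0.75 (SE 0.24). The suffix of this last name marks probes that may cross-hybridise with other transcripts. All 3 NEFL probe sets were thus higher on average, by amounts from 0.19 to 0.75, and control replicate 1 was the lowest array in each. Without that array the difference of 221801_x_at was 0.49.

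The medium subunit gene had a probe set that was higher in knockdown cells and a dim one that stayed below the filter. NEFM probe set 205113_at had signals of 98.3, 104.3 and 97.0 in control arrays and 166.5, 177.1 and 114.7 in knockdown arrays. The control arrays lay close together, and knockdown replicate 3 was well below the other two while still above every control value. The log2 means were 6.66 ± 0.06 and 7.24 ± 0.34 (SD, n = 3 each), a log2 fold change of 0.58 (SE 0.18) that was 0.78 without knockdown replicate 3 and 0.47 without knockdown replicate 2. The other NEFM probe set, 223902_at, was below the filter in all arrays, at 10.2, 1.0 and 4.1 against 0.8, 1.4 and 1.6. It is the only member probe set with a lower mean in knockdown cells (log2 fold change -1.12, SE 0.74 from the SDs), and its groups overlapped. Its difference ran from -1.75, without control replicate 2, to -0.51, without control replicate 1, and was -0.27 on the log2(signal + 16) scale.

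The heavy subunit was at the bottom of the scale. NEFH probe set 204412_s_at read 1.5, 1.1 and 1.2 in control arrays and 1.6, 1.5 and 2.0 in knockdown arrays, and 33767_at read 5.2, 0.9 and 0.4 against 4.0, 1.2 and 6.2. Neither passed the filter in any array and both overlapped between groups. The log2 differences were 0.25 (SE 0.11) and 0.75 (SE 0.83), and on the log2(signal + 16) scale they shrank to 0.04 and 0.13.

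Alpha-internexin and peripherin had small differences. INA (204465_s_at) read 72.1, 61.2 and 67.1 in control arrays and 80.6, 77.4 and 91.7 in knockdown arrays, without overlap. Its log2 fold change of 0.31 (SE 0.11) was not called in either fit. PRPH (213847_at) read 63.8, 38.7 and 45.4 against 45.5, 65.7 and 64.6. Control replicate 1 of PRPH was within the range of the knockdown arrays, and knockdown replicate 1 was within that of the controls. The log2 fold change of 0.26 (SE 0.23) was of the size of its error, and it ran from 0.10 to 0.45 with 1 array left out.

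**Figure D2:**
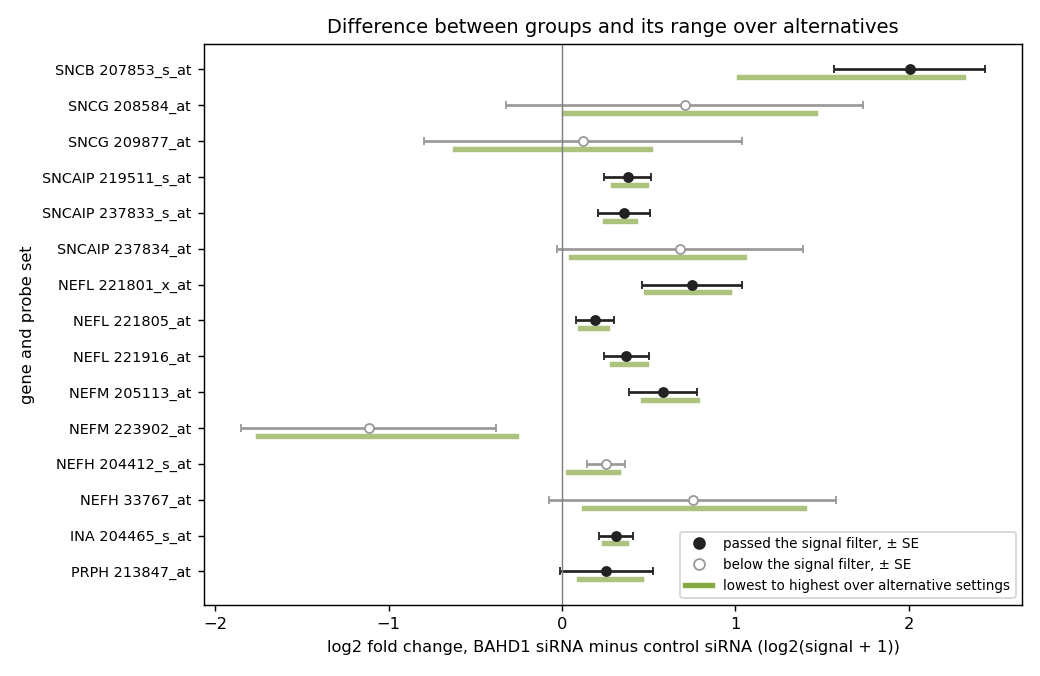
Log2 fold change (BAHD1 siRNA minus control siRNA) of each member probe set with its SE from the SDs of both groups (filled, passed the signal filter; open, below it), and green bars from the lowest to the highest value over the alternative settings. The bars of the 9 filled points stay above 0, and SNCB, at 2.01, has its lowest value of 1.02 on the log2(signal + 16) scale.

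Replicates did not behave alike across members. Control replicate 1 gave the lowest control value in 5 of the 9 kept probe sets, those of SNCAIP and NEFL, and the highest control value for INA and PRPH. Control replicate 3 was lowest for SNCB and NEFM. The order of arrays within a group was therefore not shared across members.

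**Figure D3:**
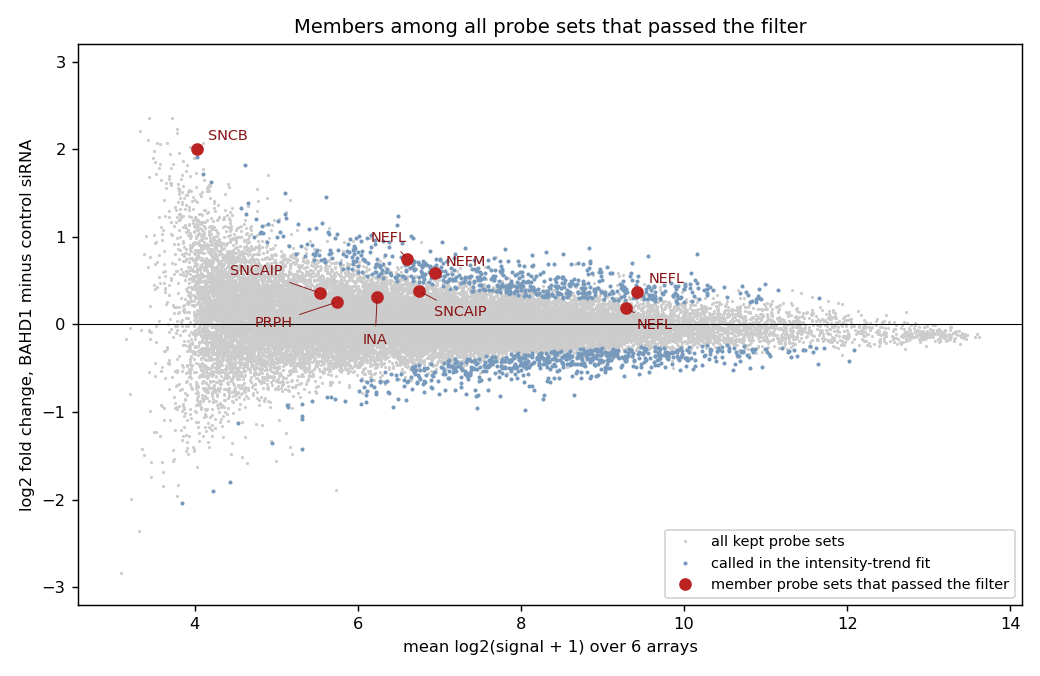
Log2 fold change against mean log2(signal + 1) over 6 arrays for the 27458 kept probe sets (grey), those called in the intensity-trend fit (blue) and the 9 kept member probe sets (red, labelled). SNCB sits at the dim edge with a difference of 2.01, and the NEFL, NEFM, SNCAIP, INA and PRPH points lie between 0.19 and 0.75.

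To see which genes behaved most like 2 of the members, array profiles were centred on each gene's mean and compared by the mean absolute difference over 6 arrays, among 23537 kept probe sets of other single genes. For SNCB the 5 closest were NLRP9, IDO1, PIEZO2, SLC26A10P and QRSL1, at mean absolute differences of 0.23, 0.24, 0.33, 0.34 and 0.34. NLRP9, for example, read 6.3, 7.9 and 4.7 in control arrays and 21.1, 24.1 and 18.2 in knockdown arrays. All 5 were dim, with no control value above the filter level, and were kept through their knockdown values. For the brightest member probe set, NEFL 221916_at, the closest were TXNDC17, CDC42EP3, BDH1, SGSM3 and YTHDF3, at 0.02 to 0.04. TXNDC17 read 40.2, 44.6 and 53.8 against 55.2, 62.0 and 58.0, and its log2 difference of 0.34 was near the 0.37 of NEFL. Genes near SNCB and near NEFL were picked for the closeness of their profiles, so the likeness of their differences follows from the choice.

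Related genes were read from lists drawn up by function with earlier results of these data known, each gene by its brightest kept probe set. The counts and adjusted p-values of list genes are therefore descriptions. Counts are given beside those of all 12529 genes, of which 3.06% were called higher and 2.46% lower in the intensity-trend fit. In the fit with 1 prior no list gene was called. Among other intermediate filament genes 10 of 13 were kept, 5 higher and 5 lower, with a median log2 fold change of -0.004 against 0.02 for all genes. VIM, the vimentin gene and the main filament of mesenchymal and many cultured cells, fell. Its signals were 3457.5, 3679.3 and 3105.6 in control arrays and 2742.8, 2806.4 and 2652.6 in knockdown arrays, a log2 fold change of -0.32 (SE 0.07, limma intensity-trend fit, adjusted p = 0.0318; 0.197 with 1 prior). The VIM groups did not overlap, and the call was kept only when control replicate 3 was the array left out (adjusted p = 0.0115), with 0.0554 to 0.124 for the other 5 arrays. The brightest probe sets of the other 9 genes did not pass, with 0.31 for KRT10, -0.60 for LMNA and -0.17 for LMNB2. The other kept KRT10 probe sets ran from -0.16 to 0.04. For LMNA, the lamin A/C gene, probe sets went in opposite directions: another of its probe sets passed as higher at 1.02 (limma intensity-trend fit, adjusted p = 0.0106; 0.132 with 1 prior), and the remaining LMNA probe sets ran from -0.0009 to 0.66.

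Genes for neurofilament linkers, transport and turnover had 12 of 13 members kept, 6 higher and 6 lower, at a median of 0.01. DST, which encodes dystonin, a linker of filaments to microtubules and actin, fell from 448.0, 431.4 and 438.9 to 327.7, 358.5 and 325.8, a log2 fold change of -0.38 (SE 0.08, limma intensity-trend fit, adjusted p = 0.0196; 0.150 with 1 prior). With 1 array left out its adjusted p was between 0.0337 and 0.0786, over 0.05 with either control replicate 1 or 2, or either knockdown replicate 2 or 3, taken out. Its 4 other kept probe sets ran from -0.63 to 0.17, and 1 of these also passed, at -0.35 (limma intensity-trend fit, adjusted p = 0.0436; 0.195 with 1 prior). The dynein heavy chain gene DYNC1H1, the neuronal kinesin gene KIF5C and the kinase gene GSK3B had -0.30, 0.34 and -0.18 and did not pass, and the 2 other DYNC1H1 probe sets were at 0.34 and 0.36. KIF5B, a widely expressed kinesin gene, was at -0.05 by its brightest probe set, whereas another KIF5B probe set passed as lower at -0.37 (limma intensity-trend fit, adjusted p = 0.0103; 0.141 with 1 prior). Of the genes for synuclein partners at the synapse and in turnover, 11 of 16 were kept, 8 higher and 3 lower, at a median of 0.15, and none passed in the intensity-trend fit. SIAH2, a ubiquitin ligase gene, had -0.29, the phospholipase gene PLD2 0.28, and the SNARE genes STX1A and VAMP2 0.51 and 0.15. The other kept VAMP2 probe sets were lower, from -0.38 to -0.32. STX1A had fewer than 3 control values above the filter level and was kept through its knockdown values.

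Of the neuronal marker genes 12 of 22 were kept, 7 higher and 5 lower, at a median of 0.11. In 5 of the 12 (STMN2, RBFOX3, INSM1, CPLX1 and NCAM1) all knockdown values exceeded all control values, a pattern of 16% of all genes, and the reverse, a pattern of 12.2% of all genes, was seen in 0 of the 12. STMN2, RBFOX3 and CPLX1 had fewer than 3 control values above the filter level and were kept through their knockdown values. The count is therefore not read against these shares. NCAM1 had 4 kept probe sets, of which the brightest was at 0.10 and the others ran from -1.05 to 0.43. INSM1, a zinc finger transcription factor gene of neuroendocrine and neuronal progenitors, rose from 150.8, 192.2 and 187.1 to 239.3, 286.2 and 280.1. The log2 fold change was 0.60 (SE 0.11, limma intensity-trend fit, adjusted p = 0.0154; 0.151 with 1 prior). It was not called when control replicate 1 or knockdown replicates 2 or 3 were taken out in turn (limma adjusted p of 0.0528, 0.0676 and 0.0654). CPLX1, for the presynaptic protein complexin, read 16.2, 13.2 and 18.4 against 35.0, 29.6 and 33.3, a log2 difference of 0.9985 that missed the threshold (adjusted p = 0.0734). STMN2 and RBFOX3 had 0.54 and 0.70 and did not pass. Of 6 markers of mature neurons, 3 were kept (RBFOX3, SLC17A7 and GAD1), and none was listed at 0. SLC17A7, like RBFOX3, had fewer than 3 control values above the filter level and was kept through its knockdown values. The summed signal of the 6 ranged over 107.5 to 154.1 in the control group and 135.0 to 174.9 in the knockdown group. GAD1 made up 65.4 to 82.7 of this sum in control arrays and 57.1 to 84.0 in knockdown arrays. The part of these markers in the member differences was not tested.

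The REST repressor complex list was kept in full, 13 of 13, with 8 higher and 5 lower, a median of 0.08 and no call for the brightest probe set of any gene. CDYL, for a chromodomain co-repressor, was at 0.006 by that probe set, while both of its other kept probe sets passed, in opposite directions, the first at -0.65 (limma intensity-trend fit, adjusted p = 0.0205; 0.141 with 1 prior) and the second at 0.35 (adjusted p = 0.0368; 0.169 with 1 prior). REST itself was at 0.24 by its brightest probe set and at -1.27 by its other kept probe set, and neither was called in either fit. The co-repressor genes RCOR1 and RCOR2 had 0.34 and 0.86, and the histone methyltransferase genes EHMT2 and EHMT1 had -0.41 and 0.30. The other kept EHMT1 probe sets ran from -0.12 to 0.42. RCOR2 read 13.4, 26.8 and 17.9 in control arrays and 37.3, 40.8 and 27.4 in knockdown arrays, at an adjusted p of 0.133 in the limma intensity-trend fit. Its groups did not overlap, a pattern of 16% of all genes in this direction. RCOR2 had fewer than 3 control values above the filter level and was kept through its knockdown values, so the lack of overlap is not read as a result. For blood, liver, fibroblast, glia and muscle lists, 1 of 4, 1 of 4, 1 of 5, 2 of 4 and 0 of 4 markers with a probe set were kept. The fibroblast marker kept was COL1A1, a collagen gene, at 155.5, 127.3 and 139.5 in control arrays and 207.3, 202.3 and 143.9 in knockdown arrays. The COL1A1 groups overlapped, and its log2 difference of 0.37 missed the threshold (limma intensity-trend fit, adjusted p = 0.152). The other kept COL1A1 probe sets ran from -0.37 to 0.30. The summed signal of the 5 fibroblast markers ranged over 162.7 to 197.8 in the control group and 183.5 to 249.3 in the knockdown group, and their part in the member differences was not tested.

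**Figure D4:**
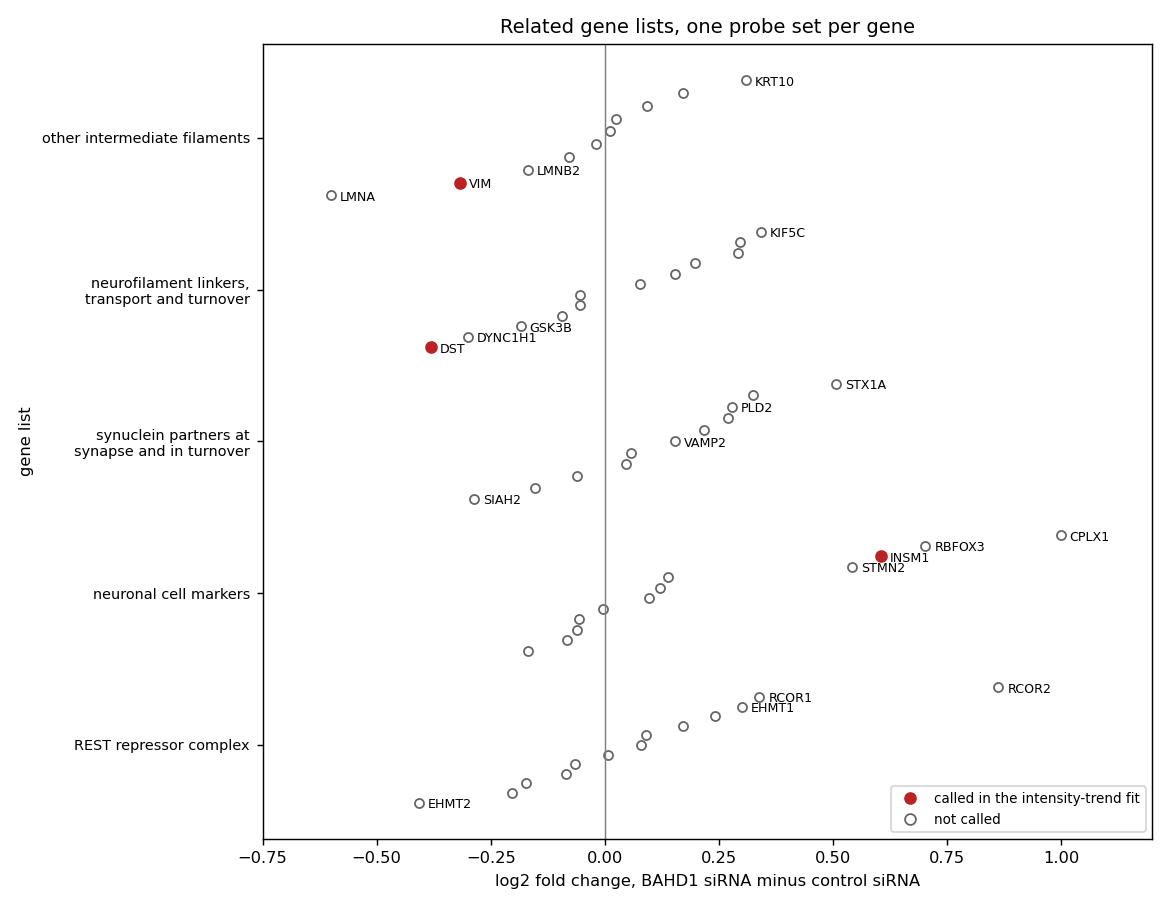
Log2 fold change (BAHD1 siRNA minus control siRNA) of each kept gene in 5 related lists, by its brightest probe set, with red points for genes whose brightest probe set was called in the intensity-trend fit and names for the 4 smallest p-values per list. VIM (-0.32) and DST (-0.38) are the red points to the left of 0, and INSM1 (0.60) is the one to the right.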

How the data were processed

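Total RNA from 6 samples was labelled with biotin from oligo(dT) primers, per the labels' protocols, and hybridised to 1 Affymetrix array each. The authors deposited 1 linear intensity per probe set and array. GCOS and GCRMA are listed in the submitters' processing notes with no role, and no genome build was needed for the values. After trimming 2% of values at either end, every array averaged 99.99, so the arrays share 1 scale. Detection calls were not used here.

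Samples were grouped by title. Members and gene lists were chosen with earlier results of these data known. Intensities were analysed as log2(value + 1) with limma 3.58.1 under R 4.3.3 (functions lmFit and eBayes, no covariates, 6 arrays, Benjamini-Hochberg over 27458 kept probe sets, 62 control probe sets left out, threshold 0.05). The intensity-trend fit used eBayes with trend and robust. The scripts were tested on simulated arrays. Precision is limited by the number of arrays. Named were all members, the 4 smallest p-values per list in the intensity-trend fit, and the 5 nearest profiles to SNCB and the brightest member. NCAM1, KIF5B, CDYL and REST were named after their values were seen. Alternatives were a replicate block, filters, normalisations, pseudocounts, array weights and leaving out each array.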

Additional observations from a re-analysis of the deposited data

Results flagged for a closer look

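The poly-A control probe sets, which enter no comparison, read 1.49 times the control level in knockdown arrays (median ratio), with no overlap between groups in any of the 24.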

How the results depend on the processing

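Calls depended on the fit and the filter. The fit with 1 prior called 0 probe sets over the whole table, 0 to 4 with 1 array left out (4 without control replicate 2, 1 without knockdown replicate 2) and 1147 with the stricter filter, and the intensity-trend fit called 1221. Member calls were 0, 1 (NEFM 205113_at) with the stricter filter, and 4 in the intensity-trend fit. List gene calls were 0, 2 and 3 in the same order. In the intensity-trend fit, combinations added after seeing the data gave 398 calls with no filter and 177 to 1174 with 1 array left out, and list gene calls ran from 0 to 6. The replicate block left 0 calls with 1 prior and gave 1629 with the intensity trend, of which 4 were members. Same-numbered arrays were not treated as pairs in the main fits, and the labels do not say whether they belong together. Their deviations from the group means correlated at 0.01, 0.01 and 0.02. Not every array correlated best with its own number. With 3 arrays per group, correlations this small cannot decide whether the arrays were paired. The median member difference stayed between 0.20 and 0.46 under every alternative that changes values, and 13 or 14 of 15 probe sets were higher. SNCG 209877_at changed sign under quantile normalisation (-0.02), with array weights (-0.06) and without control replicate 1 (-0.62) or knockdown replicate 1 (-0.42).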
